A study of Saccharomyces cerevisiae with 6 samples.

Results

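The yeast vacuole is kept acidic by the vacuolar proton ATPase (V-ATPase), filled with proteases and other hydrolases, and joined to other vacuoles and to endosomes by a dedicated set of tethering and fusion proteins. The 32 genes described here were taken by name from the 6442 genes listed in the count and FPKM tables. They comprise 15 V-ATPase subunit genes (8 of the V1 sector and 7 of the V0 sector), 3 genes of V-ATPase assembly factors, 8 hydrolase genes, 3 genes of the HOPS and CORVET tethering complexes and 3 SNARE genes. All 32 passed the filter on low counts, with 557 to 36020 counts per gene and library.

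The transcriptomes of 2 haploid Saccharomyces cerevisiae strains were compared in 3 libraries each, titled S3 and H0. Both strains carry the synthetic chromosome V (synV), in which loxPsym sites follow many nonessential genes, and the heterologous carotenoid genes crtE, crtI and crtYB with a LEU2 marker at the CAN1 locus. S3 was taken to be yJBH012, a single clone recovered after SCRaMbLE, the rearrangement of a synthetic chromosome by Cre recombinase, here a Cre-EBD fusion switched on by galactose and estradiol from the plasmid pCRE4. H0 was taken to be yJBH000, its unrearranged parent. GEO's labels give one genotype for all libraries, so that the strain names rest on the study's methods, which describe the transcriptomes of no other strains. Cells were grown in flasks for 12 h at 30 °C and 250 rpm. The study's methods name YPD medium (yeast extract, peptone and glucose) and harvest in exponential phase. In yJBH012 the segment from YEL014C to YEL013W is deleted. YEL013W is VAC8, whose product sits on the vacuolar membrane and acts in vacuole inheritance and in the cytoplasm-to-vacuole targeting of aminopeptidase I. VAC8 had 0, 0 and 1 counts in the S3 libraries, against 2532, 2473 and 2216 counts in the H0 libraries, and YEL014C had no count in S3, against 82 to 84 counts in H0.

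The S3 libraries held 17675299 to 21568860 counts and the H0 libraries 23340054 to 25333938 counts. Levels in a library are given as CPM, counts scaled by its TMM-adjusted total, where TMM factors correct for the composition of a library, and levels of different genes are compared only as FPKM, which also divides by gene length. Changes were called where the p from edgeR (quasi-likelihood test), adjusted over 5904 genes by the Benjamini-Hochberg method, was below 0.05, and fold changes are S3 over H0. No source used here says that the libraries came from separate cultures beyond calling them triplicates, so that p-values measure the spread between these libraries. In bulk RNA, a change in the share of cells that express a gene and a change in RNA per cell cannot be told apart. Between libraries of S3 the chi-square of the counts per degree of freedom was 11.95 to 14.66, whereas in H0 it was 84.15 and 86.51 for the pairs with replicate 1 and 7.21 for the other pair. H0 replicate 1 stood apart for the vacuolar genes as well. It lay farther from the other H0 libraries than these lay from each other in 27 of 32 genes. It was above both of them in 7 of 8 hydrolase genes and below both in 13 of 15 V-ATPase genes. Values without it are given where leaving it out changed the call of any of the 32 genes. They are also given where it moved a count of called genes by more than 1.5 times.

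The V-ATPase consists of a peripheral V1 sector that hydrolyses ATP and a membrane-embedded V0 sector that carries protons. Its acidification of the vacuole drives the uptake of amino acids and ions, and allows the luminal hydrolases to mature. Most of these hydrolases are made as inactive precursors that travel through the Golgi and are activated in a cascade started by proteinase A. Fusion of vacuoles begins with tethering by the HOPS complex and is completed by SNAREs, proteins that zip the membranes together.

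Of the 32 genes, 10 were called higher and 11 lower in S3, and 11 were not called. Among all genes tested, 70.5% were called, 34.2% higher and 36.2% lower, so that the share of vacuolar genes called was near that of the genome. The log2 fold changes ran between -1.87 and 0.80, with a median of -0.09 (median size 0.28), against a median of -0.01 (median size 0.41) for all genes. LAP4 was the only one of the 32 called with a log2 fold change beyond 1, a size that 15.7% of all genes reached. In 23 genes the 3 libraries of one strain lay above the 3 of the other (11 higher and 12 lower in S3), as in 75.5% of all genes. By role, the V0 sector had 6 of 7 genes higher and none lower, and the hydrolases had 5 of 8 lower and none higher. All 3 HOPS and CORVET genes of the 32 were lower, while PEP5 and PEP3, core genes of both complexes outside the 32, were called higher.

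These directions depend in part on how libraries are scaled. When libraries were scaled by total count alone, the median over all genes moved by -0.33 on the log2 scale, 19.4% of all genes were called higher and 57.6% lower, and the vacuolar genes split into 5 higher and 22 lower. Under total counts the V0 sector had a median of 0.13, with 3 genes called higher and 1 lower, and the hydrolases had a median of -0.69, with 0 called higher and 8 lower, where the median of all genes was -0.35. Such a scaling moves all genes by nearly the same amount, so that medians relative to that of all genes hardly change by construction. Without H0 replicate 1, 11 of the 32 genes were called higher and 16 lower, where 38.3% and 39.9% of all genes were. The V0 sector then had 6 genes higher and 1 lower, and the V1 sector 2 higher and 3 lower. The hydrolases had 1 higher and 6 lower, and the assembly factors 0 higher and 2 lower.

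**Figure D1:**
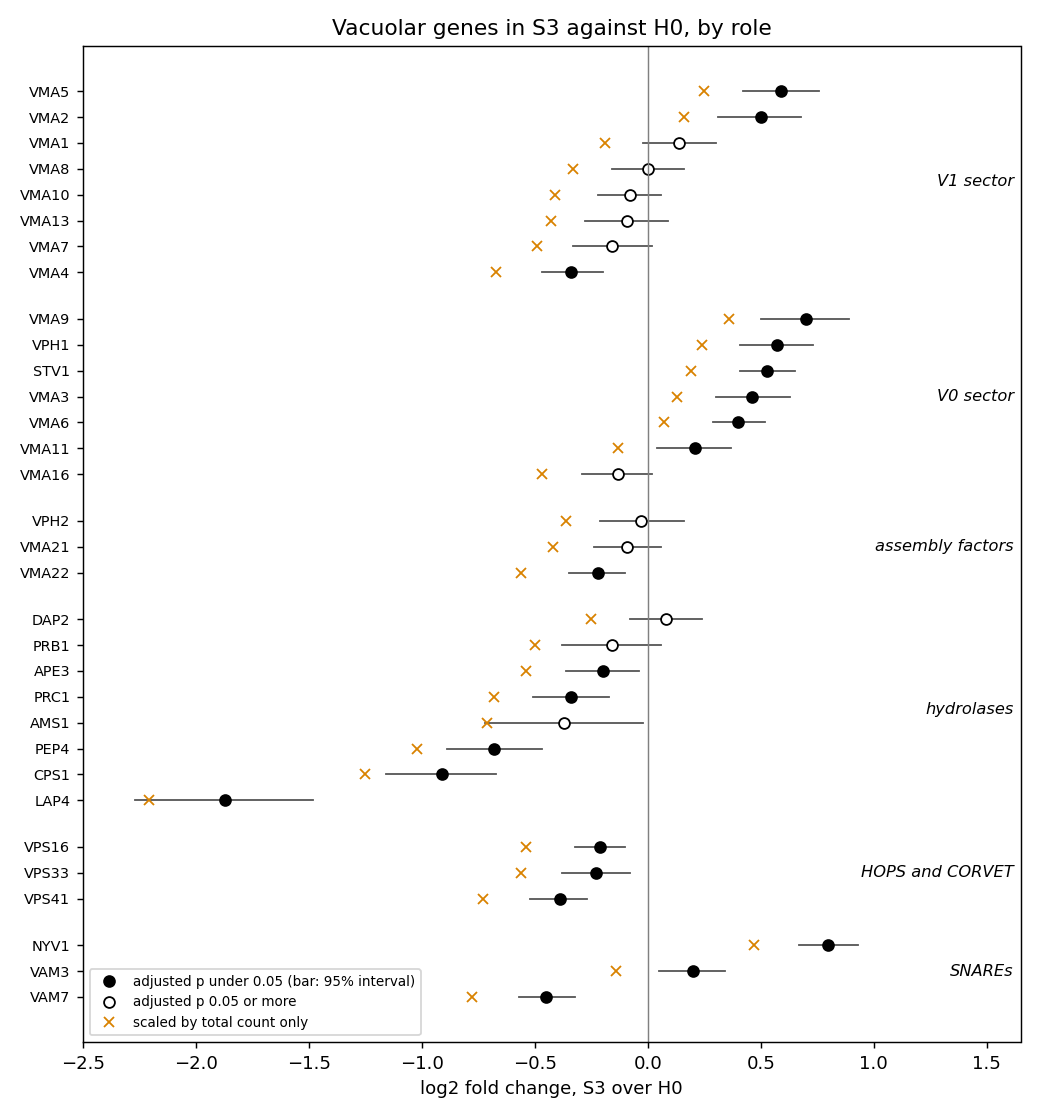
Log2 fold changes of the 32 vacuolar genes, S3 over H0, ordered by role. Points are edgeR estimates with 95% intervals, filled where the adjusted p was under 0.05, and crosses are the same fold changes with libraries scaled by total count only. Filled points of the V0 sector lie right of 0, between 0.21 and 0.70, and those of the hydrolases left of 0, between -1.87 and -0.20, while scaling by total count moves every gene to the left and takes VMA1, VMA8, VMA11, DAP2 and VAM3 from 0 or above to below 0.

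The largest differences of the 32 were in the hydrolase genes LAP4 and CPS1, both lower in S3. LAP4, listed in the R64 annotation under the name APE1, encodes aminopeptidase I, which does not pass through the Golgi but is packed in the cytoplasm and delivered directly to the vacuole. LAP4 had 152.4, 154.3 and 174.4 CPM in S3, against 750.5, 525.5 and 486.4 CPM in H0. The groups were far apart, and the S3 libraries lay close together while H0 replicate 1 was well above the other H0 libraries. The log2 fold change was -1.87 (standard error, SE, 0.17, edgeR adjusted p = 4.93e-05), and only 51 of the 5904 genes had a lower one. Without H0 replicate 1 it was -1.66.

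CPS1 encodes carboxypeptidase S, a peptidase that reaches the vacuole as a membrane protein through the multivesicular body. CPS1 had 56.3, 56.9 and 57.9 CPM in S3, against 125.7, 101.6 and 95.2 CPM in H0. Again the S3 libraries were nearly equal and H0 replicate 1 was the highest of all. Its log2 fold change was -0.91 (SE 0.10, edgeR adjusted p = 1.60e-04), and -0.79 without H0 replicate 1.

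PEP4 encodes proteinase A, the aspartyl protease that starts the maturation of the other hydrolases. PEP4 had 659.0, 691.9 and 766.5 CPM in S3, against 1227.2, 1077.3 and 1091.4 CPM in H0, so that every S3 library was below every H0 library. The log2 fold change was -0.68 (SE 0.09, edgeR adjusted p = 3.28e-04). All 3 of these calls held under each of the 15 alternative settings.

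The remaining hydrolases differed less. PRC1, the gene of carboxypeptidase Y, averaged 922.4 ± 51.4 CPM in S3 and 1168.8 ± 35.0 CPM in H0 (SD, n = 3 each), a log2 fold change of -0.34 (edgeR adjusted p = 0.00393). PRC1 kept this call under all 15 alternatives. APE3, the gene of aminopeptidase Y, had a log2 fold change of -0.20 (edgeR adjusted p = 0.0306). The APE3 call was lost without S3 replicate 1 (adjusted p = 0.0989), S3 replicate 2 (0.115), H0 replicate 2 (0.0973) or H0 replicate 3 (0.0586) in the same edgeR test, and with the replicate number as a block (0.0917).

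AMS1 encodes the vacuolar alpha-mannosidase, which shares the direct cytoplasmic route with aminopeptidase I. AMS1 had 121.7, 126.2 and 140.2 CPM in S3, against 210.1, 143.7 and 147.4 CPM in H0. The groups did not overlap, but 2 of the H0 libraries lay just above the highest S3 library and the spread within H0 was wide. The log2 fold change of -0.37 (SE 0.15) did not pass (edgeR adjusted p = 0.0573). It passed without H0 replicate 1 at a smaller fold (-0.17, adjusted p = 0.023), without H0 replicate 2 (-0.47, 0.0298) and without H0 replicate 3 (-0.45, 0.0385) in the same test. Within each library LAP4 stood 1.40, 1.36 and 1.39 log2 FPKM units above AMS1 in S3, against 2.91, 2.94 and 2.80 in H0. This pair was chosen after its values were seen, so that the difference of -1.50 is given as a description with no test. It does not depend on library scaling, and H0 replicate 1 was not apart in it.

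PRB1, the gene of the subtilisin-like proteinase B, and DAP2, the gene of the membrane-bound dipeptidyl aminopeptidase B, were not called. PRB1 had a log2 fold change of -0.16 (edgeR adjusted p = 0.162), and DAP2 had one of 0.08 (edgeR adjusted p = 0.309), which became 0.15 (adjusted p = 0.00563) without H0 replicate 1. Summed over the 8 genes, hydrolase transcripts took 4215.3 ± 157.0 CPM in S3 and 5665.2 ± 381.0 CPM in H0 (SD, n = 3 each), a ratio of 0.744. Leaving LAP4 out gave a ratio of 0.799. Summed FPKM of all 8, which lacks the TMM factors and also divides by gene length, gave one of 0.575.

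Per length, APE3 led the hydrolases in S3 with 607.8 ± 18.5 FPKM, ahead of PEP4 with 515.9 ± 38.2 FPKM and PRC1 with 513.6 ± 27.4 FPKM, and these last levels did not differ beyond their spread. In H0, PEP4 led with 1044.3 ± 89.3 FPKM, followed by APE3 with 881.4 ± 33.3 FPKM and PRC1 with 820.7 ± 15.3 FPKM. LAP4 ranked 5 of 8 in both strains, at 92.4 ± 6.55 FPKM in S3 and 427.9 ± 110.0 FPKM in H0. In S3 it stood close to DAP2 at 78.1 ± 1.95 FPKM, whereas in H0 it was several times above DAP2 at 93.2 ± 8.43 FPKM (SD, n = 3 for each level). CPS1 was the lowest hydrolase in S3 at 29.3 ± 0.37 FPKM, and AMS1 the lowest in H0 at 57.8 ± 13.7 FPKM.

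**Figure D2:**
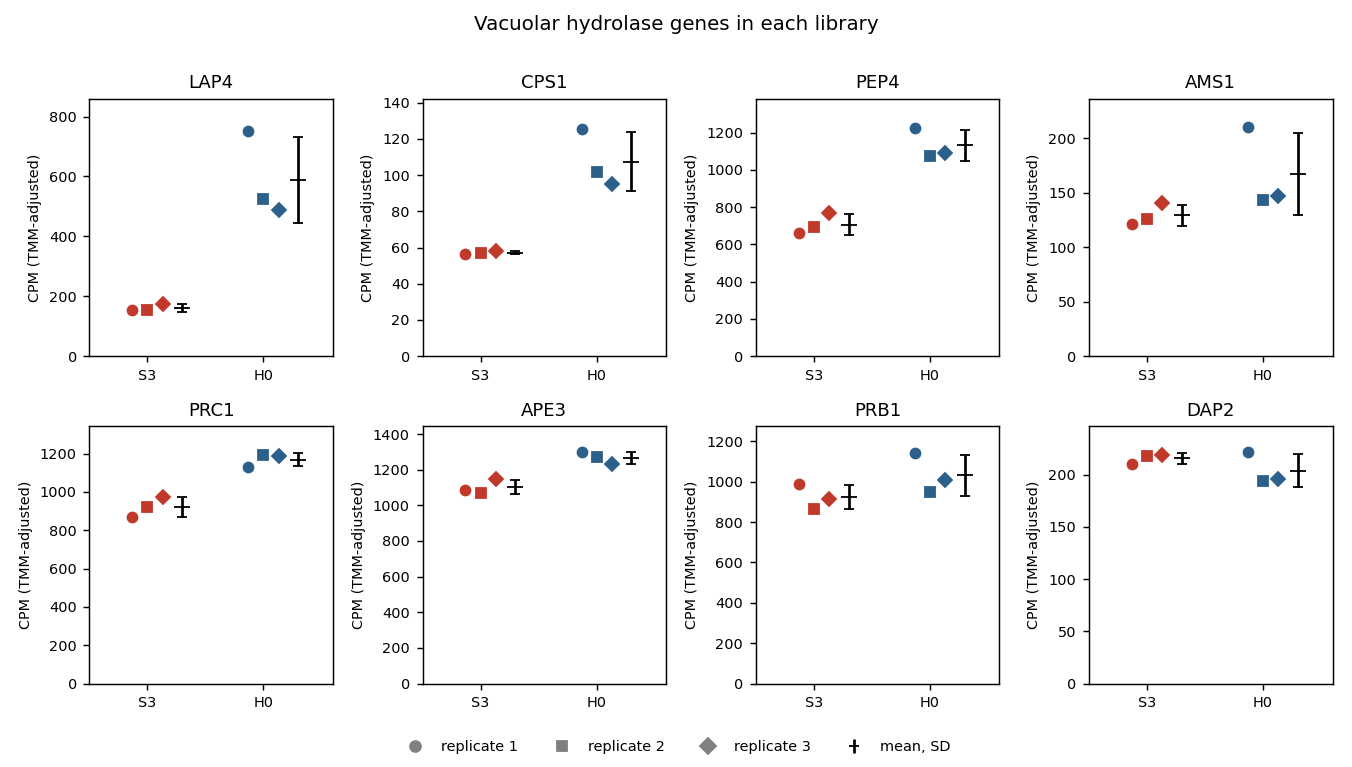
Levels of the 8 hydrolase genes in CPM (TMM-adjusted, linear axes from 0) in each S3 and H0 library, with the replicate number as symbol and the mean and SD beside the points. LAP4, CPS1 and PEP4 show every S3 library far below every H0 library (LAP4 152.4 to 174.4 against 486.4 to 750.5 CPM), AMS1 shows H0 replicate 1 at 210.1 CPM above the rest, and PRB1 and DAP2 overlap.

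Hydrolase levels are known to follow nutrient supply, so a list of 14 genes of nutrient depletion and stress was read in the same libraries. Its summed level was 6146.2 to 6942.4 CPM in S3, against 3748.9 CPM in H0 replicate 1 and 1786.5 and 1820.5 CPM in the other H0 libraries. The sum rests mainly on abundant genes and is not a change of the whole list. HSP26 averaged 1961.0 CPM in S3 and 741.1 CPM in H0, and SPI1 1521.4 CPM in S3 and 191.3 CPM in H0. Of the 14 genes 5 were called higher and 3 lower (34.2% and 36.2% of all genes were), and none was at 0. Without H0 replicate 1, 9 were higher and 3 lower (38.3% and 39.9% of all genes were). Their part in the differences of the hydrolase genes was not tested. The highest log2 fold changes of the list were those of SPI1 (a cell wall protein gene) and GPH1 (glycogen phosphorylase), at 2.99 and 2.45. The lowest were those of ADH2 (alcohol dehydrogenase II) and SSA3 (an Hsp70 chaperone), at -1.35 and -1.27.

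The sequences before these 3 genes are shown because they changed most among the hydrolases, each as the bases 400 to 101 before the start codon in R64, read 5′ to 3′ on the gene's strand, with the stress response element core AGGGG (or its reverse CCCCT) and the GATA factor motif GATAAG (or CTTATC) in capitals.
LAP4, chrXI:247783-248082, minus strand: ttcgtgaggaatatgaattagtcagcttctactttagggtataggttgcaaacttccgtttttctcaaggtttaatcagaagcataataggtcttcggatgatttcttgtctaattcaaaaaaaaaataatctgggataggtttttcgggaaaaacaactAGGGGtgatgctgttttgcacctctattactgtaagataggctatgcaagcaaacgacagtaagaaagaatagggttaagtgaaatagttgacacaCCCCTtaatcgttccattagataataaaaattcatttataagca
CPS1, chrX:97337-97636, plus strand: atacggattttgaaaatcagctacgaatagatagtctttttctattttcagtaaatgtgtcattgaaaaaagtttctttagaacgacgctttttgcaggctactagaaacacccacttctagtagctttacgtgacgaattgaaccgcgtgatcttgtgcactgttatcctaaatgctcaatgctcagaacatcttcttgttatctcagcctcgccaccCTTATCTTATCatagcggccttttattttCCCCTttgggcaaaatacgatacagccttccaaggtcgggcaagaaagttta
PEP4, chrXVI:261032-261331, minus strand: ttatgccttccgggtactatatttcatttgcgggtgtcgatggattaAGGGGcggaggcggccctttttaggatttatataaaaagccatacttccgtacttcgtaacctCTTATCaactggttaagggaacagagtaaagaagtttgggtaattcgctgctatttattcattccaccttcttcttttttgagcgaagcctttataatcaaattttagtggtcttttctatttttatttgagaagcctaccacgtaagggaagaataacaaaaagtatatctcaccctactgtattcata
The LAP4 window held 2 AGGGG cores, with first bases 240 and 144 before the start codon. The CPS1 window held 1 AGGGG core at 152 and a pair of GATAAG motifs at 181 and 176 that share a base, and the PEP4 window held 1 of each, at 353 and 290. Counting both strands, AGGGG was found in 6 of the 8 hydrolase windows (PEP4, PRB1, PRC1, LAP4, APE3 and CPS1), in 15 of the 32 and in 23.5% of 6001 windows of the same length in R64. GATAAG was found in 5 of the 8 (the same genes but LAP4), in 12 of the 32 and in 13.9% of all windows. GATAAG was added after the values had been seen. A short motif occurs often by its letters alone, and a match is no evidence that a factor binds there. AGGGG lay before the 5 hydrolase genes called lower, among them PRC1 with 2 cores (-0.34), and before PRB1 (-0.16), which was not called. The windows of DAP2 (0.08) and AMS1 (-0.37), also not called, held none. AMS1 without a core was thus lower by more than PRC1 (-0.34) and APE3 (-0.20), which held cores. NYV1, the gene of the 32 with the largest increase (0.80), held 1 core at 122 before the start codon. A link between the motif and the fold changes was not tested.

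Of the 7 V0 genes 6 were called higher in S3, all but VMA16, where 34.2% of all genes were higher. Under total counts 3 were called higher and VMA16 lower, where 19.4% and 57.6% of all genes were. VPH1 and STV1 encode the alternative forms of subunit a, the large membrane subunit that forms the proton path, and their products place the enzyme in the vacuole (Vph1) or in the Golgi and endosomes (Stv1). VPH1 had 646.8, 654.0 and 670.3 CPM in S3, against 413.1, 454.2 and 459.7 CPM in H0. STV1 had 175.9, 173.4 and 181.8 CPM in S3, against 117.9, 125.8 and 124.9 CPM in H0. In both genes every S3 library was well above every H0 library, and the spread within a strain was small. Their log2 fold changes were nearly the same, 0.57 (SE 0.07, edgeR adjusted p = 1.86e-04) for VPH1 and 0.53 (SE 0.05, edgeR adjusted p = 7.69e-05) for STV1, and both calls held under all 15 alternatives.

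The balance of the 2 forms was compared within each library. The log2 ratio of VPH1 to STV1 in FPKM was 1.962, 1.999 and 1.965 in S3, against 1.892, 1.935 and 1.963 in H0. The libraries of the strains overlapped only at 1.962 in S3 and 1.963 in H0, and the difference was 0.05 (exact two-sided permutation test, p = 0.2). As 3 against 3 libraries allow no p below 0.1, this test cannot show whether the balance differed. The genes share 69.6% of bases over an aligned stretch of 786 and 72.1% over another of 355, and how the authors' counting treated reads that fit both is not given in the sources used here.

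VMA9, which encodes the small subunit e, had the largest fold change of the V-ATPase. VMA9 had 108.7, 106.4 and 111.6 CPM in S3, against 58.8, 70.7 and 71.9 CPM in H0, a log2 fold change of 0.70 (SE 0.08, edgeR adjusted p = 1.96e-04) that held under all 15 alternatives. VMA6, the gene of subunit d at the top of the rotor, averaged 282.6 ± 1.87 CPM in S3 and 213.9 ± 4.48 CPM in H0 (SD, n = 3 each; log2 fold change 0.40, edgeR adjusted p = 2.26e-04). This VMA6 call was lost when libraries were scaled by total count (0.07).

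The proton-carrying ring is built from the related proteolipids c, c′ and c″, and their genes did not move together. VMA3, the gene of subunit c, which fills most places of the ring, had 510.2, 475.7 and 525.7 CPM in S3, against 343.4, 376.1 and 376.4 CPM in H0, a log2 fold change of 0.46 (SE 0.07, edgeR adjusted p = 6.63e-04). VMA11, for c′, had a smaller log2 fold change of 0.21 (edgeR adjusted p = 0.0321). VMA16, for c″, averaged 313.3 ± 11.2 CPM in S3 and 343.7 ± 19.6 CPM in H0 (SD, n = 3 each), and its log2 fold change of -0.13 was not called (edgeR adjusted p = 0.1). It was called lower without H0 replicate 1 (-0.18, adjusted p = 0.00361), with upper quartile factors (-0.17, adjusted p = 0.0351) and under total counts (-0.47, adjusted p = 2.00e-04) in the same edgeR test. Under total counts the VMA3 call was lost (0.13) and VMA11 turned to -0.13. The VMA11 call was also lost in the same edgeR test without S3 replicate 1 (adjusted p = 0.0709), S3 replicate 3 (0.0795) or H0 replicate 2 (0.0711), and with the replicate number as a block (0.0512). Within libraries, the log2 FPKM ratio of VMA3 to VMA16 was 1.10, 1.07 and 1.12 in S3, against 0.50, 0.51 and 0.48 in H0. This pair was chosen after the values were seen and was not tested, but the ratio does not depend on scaling.

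The V1 genes split into 2 higher, 1 lower and 5 not called, where 34.2% of all genes were higher and 36.2% lower. Under total counts 1 was higher and 6 were lower, where 19.4% and 57.6% of all genes were. VMA5, the gene of subunit C, which joins the stalk to the membrane sector and leaves the complex when the enzyme comes apart in low glucose, had 366.7, 356.7 and 370.8 CPM in S3, against 220.7, 247.9 and 259.4 CPM in H0. Its log2 fold change of 0.59 (SE 0.07, edgeR adjusted p = 2.34e-04) was the highest in V1 and held under all 15 alternatives. VMA2, for the regulatory nucleotide-binding subunit B, averaged 938.2 ± 28.6 CPM in S3 and 664.6 ± 51.2 CPM in H0 (SD, n = 3 each), a log2 fold change of 0.50 (edgeR adjusted p = 8.59e-04) whose call was lost under total counts (0.16). Subunit B alternates with the catalytic subunit A in the V1 head, and VMA1, the gene of subunit A, moved less. VMA1 had 1125.4, 1159.2 and 1181.6 CPM in S3, against 994.5, 1062.5 and 1082.9 CPM in H0, with no overlap, but its log2 fold change of 0.14 was not called (edgeR adjusted p = 0.0996). VMA1 was called higher by the DESeq2 Wald test (0.16, adjusted p = 0.0183) and lower under total counts (-0.19, edgeR adjusted p = 0.0251).

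VMA4 encodes subunit E of the outer stalks that hold the V1 head in place. VMA4 had 524.0, 520.0 and 545.7 CPM in S3, against 677.3, 665.5 and 662.6 CPM in H0, and it was the only V-ATPase subunit gene called lower (log2 fold change -0.34, SE 0.06, edgeR adjusted p = 0.00143), a call that held under all 15 alternatives. Its partner in the stalk, subunit G, is encoded by VMA10, which was not called (-0.08, edgeR adjusted p = 0.277). The genes of subunits F (VMA7, -0.16, edgeR adjusted p = 0.0921) and H (VMA13, -0.09, edgeR adjusted p = 0.311) were not called either. Both were called lower without H0 replicate 1, VMA7 at -0.23 (adjusted p = 5.97e-04) and VMA13 at -0.16 (adjusted p = 0.00575) in the same test. VMA8, for subunit D of the central rotor, had the fold change nearest to 0. It had 263.7, 263.5 and 282.1 CPM in S3, against 249.5, 277.5 and 281.3 CPM in H0, with full overlap and a log2 fold change of 0.00 (95% interval -0.16 to 0.16, edgeR adjusted p = 0.983). Under total counts VMA8 was called lower (-0.33, edgeR adjusted p = 0.00153).

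**Figure D3:**
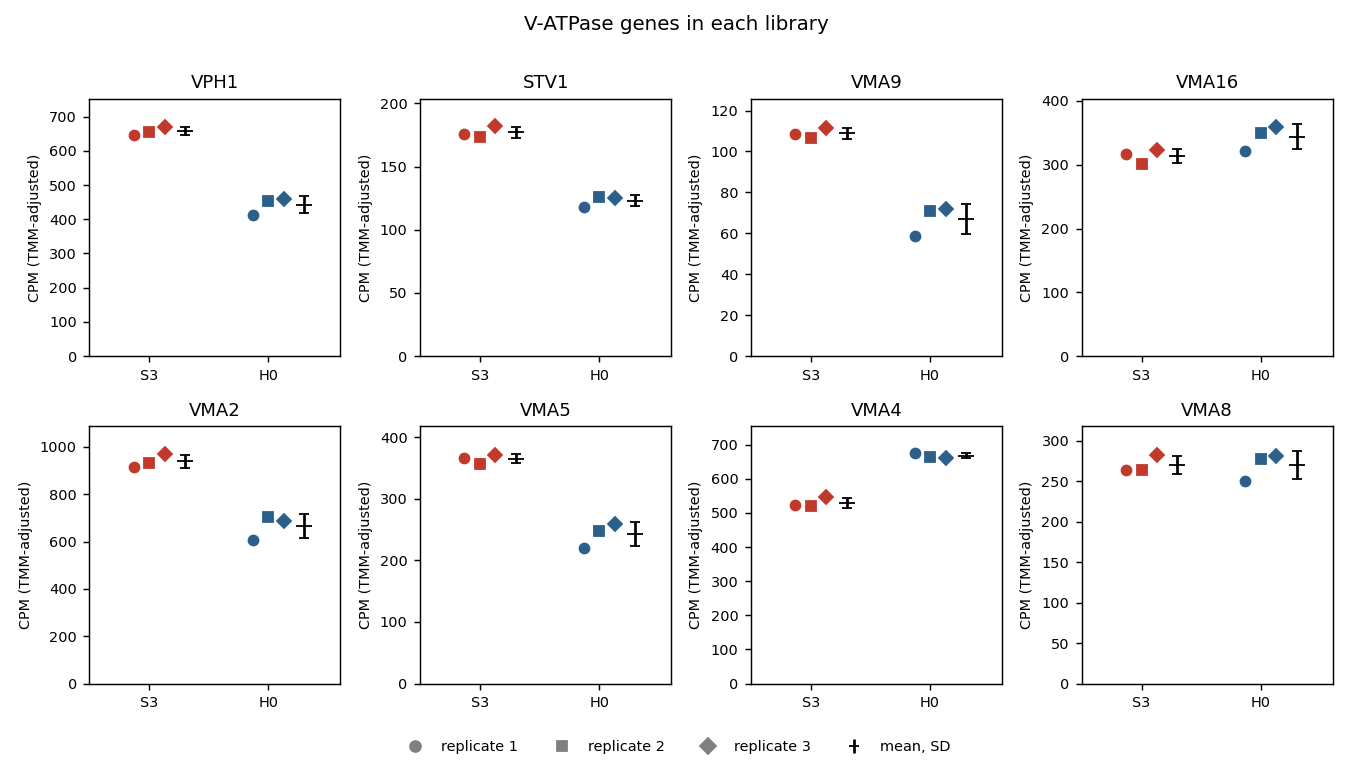
Levels of 8 V-ATPase genes in CPM (TMM-adjusted, linear axes from 0) in each S3 and H0 library, V0 genes above and V1 genes below, with the mean and SD beside the points. S3 libraries lie above all H0 libraries in VPH1, STV1, VMA9, VMA2 and VMA5 and below them in VMA4, while VMA16 and VMA8 overlap (VMA8 263.5 to 282.1 in S3 against 249.5 to 281.3 CPM in H0). When libraries were scaled by total count, VMA2 was not called and VMA16 and VMA8 were called lower.

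The subunits of the enzyme are needed in fixed proportions, and their transcripts were not equally abundant in either strain. Per length, VMA10 was the highest V-ATPase gene in both strains, at 1039.4 ± 38.5 FPKM in S3 and 1383.6 ± 34.1 FPKM in H0. STV1 was the lowest in both, at 59.0 ± 1.08 FPKM in S3 and 51.6 ± 1.23 FPKM in H0 (SD, n = 3 each). VMA3 ranked 2 of 15 in S3 with 928.6 ± 40.9 FPKM and was 4 of 15 in H0 with 849.0 ± 34.2 FPKM, where VMA4 with 1069.5 ± 25.7 FPKM and VMA7 with 908.9 ± 65.7 FPKM were above it. VMA7 and VMA11 in S3 (647.3 ± 21.6 and 642.2 ± 13.8 FPKM) did not differ beyond their spread, nor did VMA9 and VMA16 in S3 (436.7 ± 7.67 and 434.5 ± 12.6 FPKM), nor VMA6 and VMA5 in H0 (231.4 ± 6.46 and 231.0 ± 16.2 FPKM). VPH1 ranked 14 of 15 in both strains.

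The range from the highest to the lowest of the 15 genes was 4.09 to 4.18 log2 FPKM units in the S3 libraries and 4.72 to 4.76 in the H0 libraries. The SD of the 15 log2 FPKM values was 1.01 to 1.02 in S3 and 1.19 to 1.20 in H0, so that the subunit transcripts spanned a narrower range in S3. The summed FPKM of V0 genes relative to V1 genes was -0.45, -0.54 and -0.49 on the log2 scale in S3, against -0.87, -0.86 and -0.82 in H0, a difference of 0.36 that does not depend on scaling. In CPM, V0 transcripts summed to 2399.8 ± 59.0 in S3 and 1864.6 ± 96.8 in H0 (ratio 1.29), and V1 transcripts to 4545.0 ± 103.0 in S3 and 4272.5 ± 215.0 in H0 (ratio 1.06; SD, n = 3 each). In FPKM, which has no TMM scaling, the ratios were 1.0 for V0 (2975.3 ± 72.7 in S3 and 2970.5 ± 143.0 in H0) and 0.783 for V1 (4190.3 ± 92.8 in S3 and 5351.1 ± 178.0 in H0). These sums and ranges describe the 6 libraries and were not tested.

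**Figure D4:**
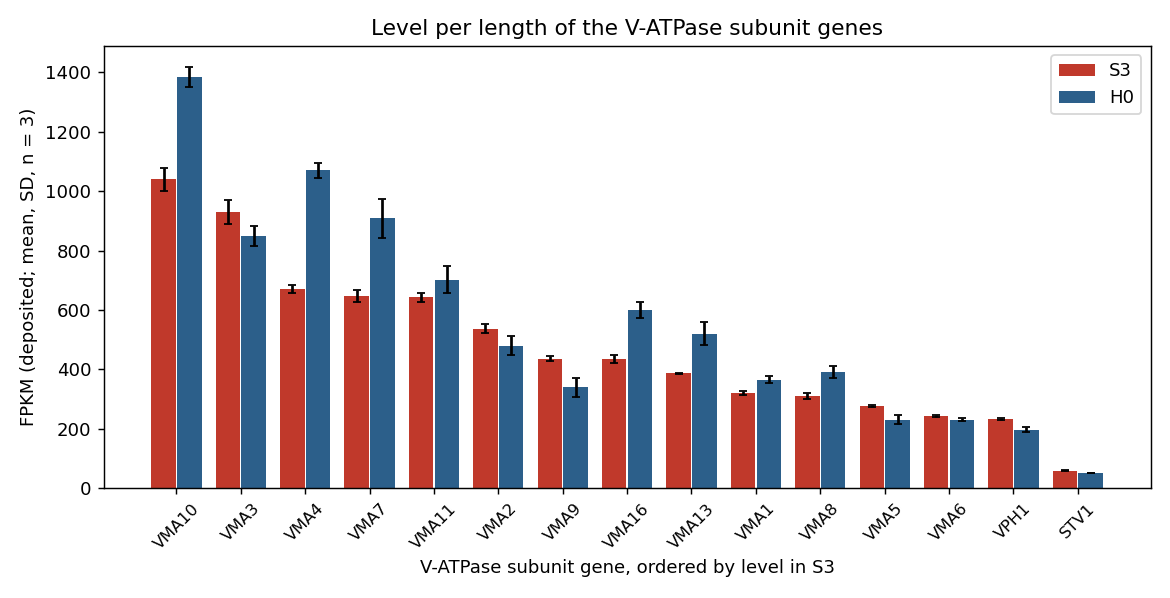
Mean FPKM (linear axis from 0, bars with SD, n = 3 libraries) of the 15 V-ATPase subunit genes in S3 and H0, ordered by level in S3. VMA10 leads in both strains (1039.4 against 1383.6 FPKM) and STV1 is last (59.0 against 51.6 FPKM). FPKM is scaled by library totals, so a bar pair can differ in direction from the TMM-scaled fold change, as in VMA11 (642.2 against 701.3 FPKM).

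Of the 3 assembly factors, which act in the endoplasmic reticulum to build V0, VMA22 was called lower. It had 53.6, 53.6 and 54.2 CPM in S3, against 59.7, 63.0 and 65.7 CPM in H0, a log2 fold change of -0.22 (SE 0.05, edgeR adjusted p = 0.00694) that held under all 15 alternatives. VMA21 (-0.09, edgeR adjusted p = 0.249) and VPH2 (-0.03, edgeR adjusted p = 0.795) were not called. Without H0 replicate 1, VMA21 was called lower at -0.15 (adjusted p = 0.0199).

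All 6 tethering and fusion genes were called, as were 70.5% of all genes. NYV1, the vacuolar R-SNARE, had the largest increase of the 32. It had 175.7, 178.2 and 175.6 CPM in S3, against 106.2, 95.5 and 102.2 CPM in H0. The S3 libraries were almost equal and far above H0, with a log2 fold change of 0.80 (SE 0.06, edgeR adjusted p = 1.68e-05). VAM7, the soluble Qc-SNARE that binds phosphoinositides on the vacuole, moved the other way. VAM7 had 35.5, 34.0 and 35.6 CPM in S3, against 47.0, 46.5 and 49.4 CPM in H0, a log2 fold change of -0.45 (SE 0.05, edgeR adjusted p = 2.34e-04). Both calls held under all 15 alternatives.

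The protein products of NYV1 and VAM7 meet in one SNARE complex. The log2 FPKM ratio of NYV1 to VAM7 was 2.63, 2.71 and 2.62 in S3, against 1.50, 1.36 and 1.37 in H0, a difference of 1.25 in a pair chosen after its values were seen and not tested. VAM3, the Qa-SNARE of the same complex, had 48.3, 42.9 and 44.5 CPM in S3, against 40.3, 38.2 and 40.0 CPM in H0. Its log2 fold change of 0.20 (SE 0.06, edgeR adjusted p = 0.025) turned to -0.14 under total counts. The VAM3 call was also lost in the same edgeR test without S3 replicate 1 (adjusted p = 0.0831), H0 replicate 2 (0.0916) or H0 replicate 3 (0.055), and with upper quartile factors (0.0576).

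VPS41 is the HOPS subunit that binds the Rab GTPase Ypt7 on the vacuole and is not part of CORVET, the related tether of endosomes. VPS41 had 69.1, 74.1 and 69.1 CPM in S3, against 92.9, 94.9 and 91.4 CPM in H0, a log2 fold change of -0.39 (SE 0.05, edgeR adjusted p = 3.23e-04). VPS16 and VPS33 encode core subunits shared by both complexes, and Vps33 is the one that binds SNAREs. VPS16 averaged 68.9 ± 0.671 CPM in S3 and 79.6 ± 2.01 CPM in H0 (SD, n = 3 each; log2 fold change -0.21, edgeR adjusted p = 0.00528). VPS33 averaged 39.8 ± 2.83 CPM in S3 and 46.6 ± 0.53 CPM in H0 (SD, n = 3 each; log2 fold change -0.23, edgeR adjusted p = 0.0145). The VPS33 call was lost without S3 replicate 1 (-0.17, adjusted p = 0.0593 in the same test), while those of VPS41 and VPS16 held under all 15 alternatives.

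**Figure D5:**
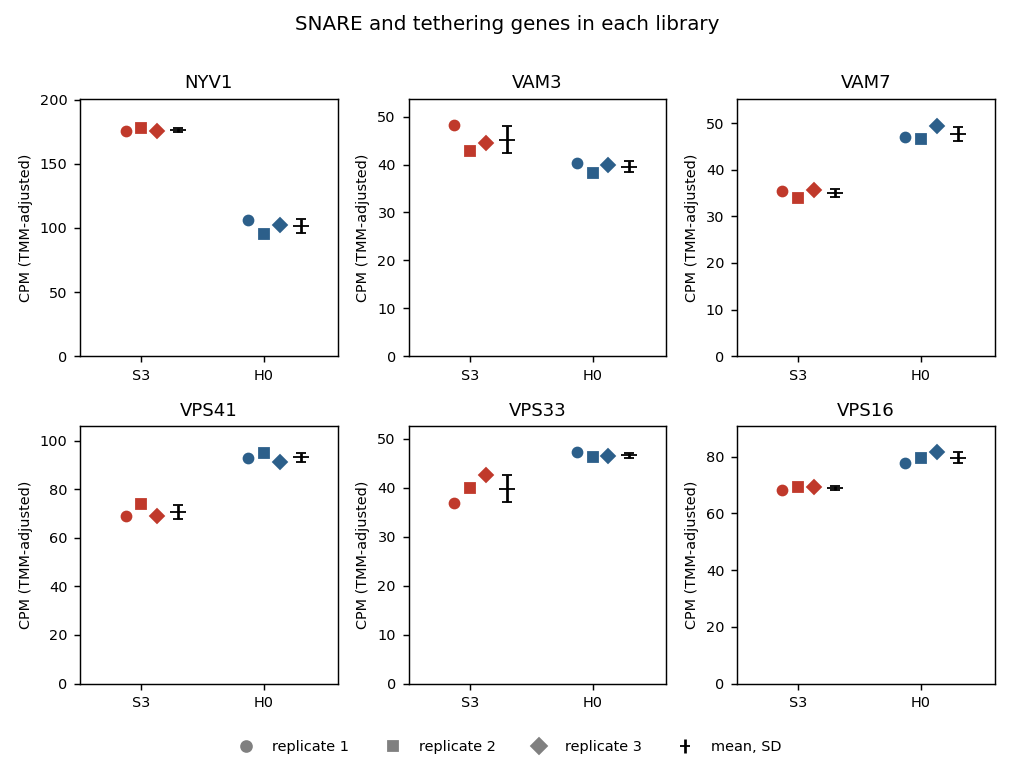
Levels of the 3 SNARE genes and the 3 HOPS and CORVET genes in CPM (TMM-adjusted, linear axes from 0) in each S3 and H0 library, with the mean and SD beside the points. NYV1 (175.6 to 178.2 in S3 against 95.5 to 106.2 CPM in H0) and VAM3 are higher in S3, VAM7, VPS41, VPS33 and VPS16 are lower, and no gene overlaps between strains. The direction of VAM3 was reversed when libraries were scaled by total count.

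The core of HOPS and CORVET also holds Pep5 and Pep3, whose genes belong to a wider list of 45 vacuolar genes that was counted beside the 32. Of these 45 genes, 11 were called higher and 15 lower, where 34.2% and 36.2% of all genes were, with a median log2 fold change of -0.08. Total count scaling gave 4 higher and 31 lower, where 19.4% and 57.6% of all genes were. Among 16 further fusion and tethering genes 4 were called higher and 6 lower, among 12 genes of sorting to the vacuole 4 were higher and 3 lower, and among 6 V-ATPase regulators 1 was higher and 1 lower. Among 11 further hydrolases and hydrolase inhibitors 2 were higher and 5 lower, with a median of -0.31 that became -0.04 without H0 replicate 1. Without that library, 16 of the 45 genes were called higher and 16 lower, where 38.3% and 39.9% of all genes were. Among them 3 V-ATPase regulators were higher and 1 lower.

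PHO8 and APS3 were the genes of this wider list that were called with a log2 fold change beyond 1 in size, with TFS1 just inside that limit at 0.997. PHO8, the vacuolar alkaline phosphatase, had 155.4, 140.4 and 146.0 CPM in S3, against 328.6, 310.4 and 310.3 CPM in H0, a log2 fold change of -1.10 (SE 0.06, edgeR adjusted p = 7.47e-06). APS3 encodes the small subunit of the AP-3 adaptor, which carries alkaline phosphatase and Vam3 from the Golgi straight to the vacuole. APS3 had 56.1, 54.4 and 54.1 CPM in S3, against 121.1, 117.0 and 122.9 CPM in H0, a log2 fold change of -1.13 (SE 0.05, edgeR adjusted p = 3.03e-06). In both genes the strains were far apart and H0 replicate 1 was close to the other H0 libraries.

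Some genes of the wider list were chosen after their values were seen, because they meet the 32 in one complex or pathway. PEP5, for a core subunit of HOPS and CORVET, had a log2 fold change of 0.60 (edgeR adjusted p = 4.28e-05) where VPS16 and VPS33 were lower. PEP3, for another core subunit, had one of 0.28 (edgeR adjusted p = 0.00232), which turned to -0.05 under total counts. YPT7, the Rab GTPase that recruits HOPS, had one of -0.32 (edgeR adjusted p = 0.00723). VPS10, the sorting receptor of carboxypeptidase Y, had one of 0.74 (edgeR adjusted p = 2.78e-05) while PRC1, the gene of its cargo, was lower. TFS1, an inhibitor of carboxypeptidase Y, had 276.8, 313.7 and 316.0 CPM in S3, against 205.8, 121.0 and 127.5 CPM in H0, a log2 fold change of 0.997 (edgeR adjusted p = 0.00281) that was 1.28 without H0 replicate 1 (adjusted p = 1.26e-07 in the same test). ATG15, a vacuolar lipase, had one of -0.95 (edgeR adjusted p = 1.44e-05). ATG42, of the further hydrolases, moved the other way, at 0.70 (edgeR adjusted p = 0.00111). It is given for its similarity to PRC1, with which it shares 67.5% of bases over an aligned stretch of 545.

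VMA3, VMA8 and PRB1 are the 3 of the 32 genes that lie on chromosome V and so on synV, the chromosome that was rearranged in yJBH012. Their log2 fold changes of 0.46, 0.00 and -0.16 fell within the range of the genes on other chromosomes. Mating type markers were read as a check of the libraries. The 7 a-cell marker genes summed to 1903.5 to 2128.2 CPM in S3, against 1673.7 to 1741.5 CPM in H0, with 2 called higher and 3 lower, and the 4 alpha-cell markers summed to 61.9 to 71.1 CPM in S3, against 74.0 to 75.0 CPM in H0, with none called higher and 1 lower. None of these 11 markers was at 0.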

How the data were processed

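Counts per gene and FPKM values of the same genes were deposited for 6 libraries (3 S3, 3 H0). The authors counted reads per gene without normalization, and the deposited FPKM values divide these counts by gene length and library total. The submitters' processing notes name HTSeq 0.6.1 and DESeq 1.18.0. Aligner, genome build and use of strand are not given in the sources used here. Lengths implied by counts and FPKM equalled R64 coding lengths to the base in 6231 of 6237 genes (99.9%), so R64 (RefSeq) gave names, positions and upstream windows. Of 6442 identifiers 6436 matched, and the 6 others took at most 0.012% of any library's counts. No annotated gene overlaps any of the 32 genes.

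The count test was edgeR's quasi-likelihood test (version 4.0.16, R 4.3.3; filterByExpr, TMM factors of 0.885 to 0.897 for S3 and 1.11 to 1.14 for H0, glmQLFit, glmQLFTest, Benjamini-Hochberg adjustment over 5904 genes, no replicate block). The procedure was first tested on simulated data. That simulation changed only a small part of the genes, so it did not test scaling where most genes differ. Alternatives were DESeq2 1.42.0 size factors and Wald test, upper quartile and total count scaling, no filter, at least 10 counts in every library, a replicate block, each library left out, and limma 3.58.1 on log2 FPKM with a pseudocount of 1 or 0.1. Similar genes were sought with BLAST 2.17.0.

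The 32 genes and all lists were chosen with earlier results of these data known. All 32 are named, with the value in every library for called genes whose log2 fold change was at least 0.8 in size, VPH1, STV1, PEP4 and the gene nearest 0. Values per library of other genes were added after they had been seen. Of the wider list, genes called with a log2 fold change beyond 1 are named, and others as chosen afterwards.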

Additional observations from a re-analysis of the deposited data

How the results depend on the processing

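Of the 21 vacuolar genes called, 14 kept their direction and call under all 15 alternatives, 5 higher and 9 lower. The matching share over all genes called was not computed, so these numbers cannot be set against the genome. Without scaling for composition the calls shifted downward: total count scaling, log2(FPKM + 1) and log2(FPKM + 0.1) each gave 5 of the 32 genes higher and 22 lower, and over all genes 1144, 1147 and 1143 higher and 3401, 3383 and 3382 lower, since these settings leave out the TMM factors. Under each of these 3 settings the log2 fold changes of VMA1 (-0.19), VMA8 (-0.33), VMA11 (-0.13), DAP2 (-0.25) and VAM3 (-0.14) were reversed. VMA8, whose fold change was 0.00, also turned to -0.04 with upper quartile factors, -0.02 without S3 replicate 3 and -0.05 without H0 replicate 1, within a range of -0.05 to 0.03 over the libraries left out. VPH2, at -0.03, turned to 0.02 without S3 replicate 1, 0.00 without S3 replicate 2 and 0.04 without H0 replicate 2, within a range of -0.07 to 0.04, and the cause was not tested.

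Leaving out 1 library at a time gave 8 to 11 of the 32 genes higher and 9 to 16 lower, and 1853 to 2270 genes higher and 1907 to 2360 lower over all genes. The difference in the log2 ratio of VPH1 to STV1 ran from 0.026 to 0.062. S3 and H0 share replicate numbers. Deviations of same-numbered libraries from their strain's mean correlated at -0.007, 0.077 and 0.077, and those of unlike-numbered libraries at -0.115 to 0.04. Deviations from a mean of 3 libraries depend on each other, so these values cannot settle whether the numbers pair the libraries. With the replicate block 9 of the 32 genes were higher and 10 lower (VMA11 and APE3 were no longer called), and 1950 and 2048 of all genes. The lowest count of these genes in any library was 557, and the effect of depth on the calls was not tested.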
